A study of Mus musculus with 19 samples.

Results

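Mediastinal lymph nodes of sham-operated mice were compared with axillary lymph nodes of mice given adjuvant alone. These are the control groups of a surgical and an immunization experiment, and they were taken by their labels: 4 samples of each, 8 of the 19 samples in the series. All mice were BALB/c wild type. Sham mice had a thoracotomy without ligation of the coronary artery, followed by buprenorphine. Adjuvant mice received 200 µl of Titermax Gold, an oil emulsion, under the skin with no antigen added. At day 7, 500000 CD4+ TCRβ+ T cells were sorted from each node sample, at a stated purity above 98%, and their T cell receptor beta (TRB) RNA was amplified and sequenced. Node site and treatment differ together between the groups, so their parts in any difference cannot be told apart. The labels do not say whether a sample came from 1 animal or from a pool, so p-values reflect only how these samples vary, which may be technical. Mediastinal nodes after myocardial infarction (MI, n = 3) and axillary nodes after porcine cardiac myosin (n = 2) or mouse heart extract (n = 3), both given in the adjuvant, served as a further set of libraries from the same node sites. MI mice had their left anterior descending coronary artery ligated, and the last 5 libraries are called the antigen libraries below.

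A TRB chain is assembled in the thymus from a variable (TRBV), a diversity and a joining (TRBJ) segment, and the loop across the joints is the complementarity-determining region 3 (CDR3), which touches the peptide bound to an MHC molecule. The TRBJ segments lie in a first and a second cluster, each behind its own diversity segment, and the diversity segment of the second cluster can join only TRBJ2. Several TRBV segments are rare in the mature T cells of BALB/c mice because superantigens of endogenous mouse mammary tumor viruses delete thymocytes that carry them. Lymph nodes in general hold naive T cells, and clones expand there after an immune stimulus.

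The 8 libraries held between 7712663 and 9235800 reads. Sham replicate 3 stood apart with 212131 distinct CDR3s, against 52869 to 109097 in the other 7. It was also the highest of the 8 libraries for 11 of the 22 TRBV segments tested. Values are shares of a library's reads, so a higher share of one segment lowers the others, and more cells with a segment cannot be told apart from more TRB RNA per cell. The primers of a multiplex PCR can differ in efficiency, so shares are compared between samples and not between segments. No marker of another cell type could be examined, because only TRB transcripts were amplified.

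Among TRBV segments, TRBV16 had the clearest rise in sham mediastinal nodes, and TRBV4 the clearest fall. In all, 10 of 22 segments (45.5%) passed the quasi-likelihood test of edgeR with an adjusted p under 0.05, 5 higher (22.7%) and 5 lower (22.7%) in sham nodes. The groups did not overlap for 7 of the 22 segments (31.8%), all of them among the 10. Higher segments made up 50% of the calls, and 33.3% with TMM scaling.

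TRBV16, known as Vβ11, is one of the superantigen-deleted segments. It took 1.57%, 1.64%, 2.14% and 1.83% of reads in sham replicates 1 to 4, and 0.749%, 0.789%, 0.989% and 1.00% in adjuvant replicates 1 to 4. Every sham library lay above every adjuvant library. The means were 1.79% ± 0.253 (SD, n = 4) and 0.882% ± 0.131 (SD, n = 4), a log2 fold change of 1.02 ± 0.15 (SE) with an adjusted p of 0.000101 in edgeR. Without sham replicate 3 the log2 fold change was 0.93.

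The other superantigen-deleted segments were TRBV12-1 and TRBV12-2 (Vβ5), TRBV15 (Vβ12) and TRBV26 (Vβ3). Of the 5, 2 passed higher and 0 lower, beside 10 of all 22 segments passing (45.5%), 5 of them higher (22.7%). Their median log2 fold change was 0.97 beside 0.11 over all 22 segments. TRBV12-1 took 0.0218%, 0.0172%, 0.0461% and 0.0333% in sham libraries and 0.00799%, 0.0141%, 0.0147% and 0.0140% in adjuvant libraries. The groups did not overlap, and the log2 fold change was 1.22 ± 0.34 (SE, edgeR adjusted p 0.0140). It missed the threshold under edgeR's current settings, with an adjusted p of 0.970. TRBV12-2 (log2 fold change 0.97, adjusted p 0.0876), TRBV15 (0.25, 0.0903) and TRBV26 (0.52, 0.212) did not pass in edgeR, and sham replicate 3 was the highest library for each of them. Summed over the 5 segments at 7712663 drawn reads, the share was 2.69%, 2.61%, 3.71% and 3.11% in sham and 1.58%, 1.77%, 1.98% and 2.03% in adjuvant libraries. The groups did not overlap, but 4 against 4 samples cannot give an exact two-sided permutation p below 0.0286. That p of 0.0286 became 0.0571 after adjustment over the 6 segment lists tested.

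TRBV29 (Vβ7) and TRBV3 (Vβ16) also had higher means in sham nodes. TRBV29 took 0.515%, 0.641%, 1.66% and 0.594% of reads in sham nodes and 0.331%, 0.181%, 0.563% and 0.421% in adjuvant nodes. The groups overlapped, and sham replicate 3 lay far above every other library. The log2 fold change, 1.19 ± 0.42 with edgeR adjusted p 0.0315, fell to 0.64 (adjusted p 0.160) without sham replicate 3, so this call rests on that library. It was also lost without adjuvant replicate 1 or 2, with adjusted p of 0.0834 and 0.0739. For TRBV3 the log2 fold change of 0.59 did not pass (adjusted p 0.0513).

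TRBV4 (Vβ10) had the smallest p among the TRBV segments. It took 7.85%, 7.72%, 7.81% and 7.99% of reads in sham nodes and 10.4%, 10.3%, 9.95% and 9.23% in adjuvant nodes. Sham libraries differed little among themselves and all lay below the adjuvant libraries. The means of 7.85% ± 0.114 (SD, n = 4) and 9.98% ± 0.536 (SD, n = 4) differed by -0.35 ± 0.05 (SE) on the log2 scale, with edgeR adjusted p 7.39e-05. TRBV2 (Vβ4) was 4.45%, 4.04%, 4.18% and 4.08% in sham and 4.68%, 4.71%, 5.20% and 5.09% in adjuvant nodes, without overlap (log2 fold change -0.23, edgeR adjusted p 0.000851). When each distinct CDR3 was counted once in place of its reads, the TRBV2 log2 fold change was 0.0047. TRBV5 (Vβ1) was 19.0%, 19.1%, 19.2% and 20.4% in sham and 21.6%, 21.3%, 21.3% and 21.7% in adjuvant nodes, again without overlap (log2 fold change -0.14, edgeR adjusted p 0.00748). TRBV2, TRBV4 and TRBV5 stand together with TRBV1 and TRBV3 at the 5′ end of the locus, but the block did not move as one: TRBV1 (Vβ2) rose, with a log2 fold change of 0.12 (edgeR adjusted p 0.0220). The groups overlapped for TRBV1, and the call was lost in 7 of 17 alternative analyses. Among these were the fits without sham replicate 1, sham replicate 2 or adjuvant replicate 2 (edgeR adjusted p 0.0547 to 0.0592). Over all alternatives the TRBV1 log2 fold change ranged from 0.0069 to 0.1403. Summed, TRBV1 to TRBV5 held 41.0% ± 0.514 of sham reads and 44.9% ± 0.332 of adjuvant reads (SD, n = 4 each, exact permutation p 0.0286, adjusted p 0.0571).

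TRBV20 (Vβ15) and TRBV17 (Vβ9) were lower in every sham library than in any adjuvant library. The TRBV20 mean was 3.53% ± 0.1998 against 3.86% ± 0.107 (SD, n = 4 each), a log2 fold change of -0.13 (edgeR adjusted p 0.0294). For TRBV17 the means were 0.657% ± 0.0394 and 0.815% ± 0.0697 (SD, n = 4 each), a log2 fold change of -0.31 (edgeR adjusted p 0.0372). The TRBV17 call was lost in 11 of 17 alternative analyses and the TRBV20 call in 5 of 17, with 1 more in which TRBV20 changed sign. TRBV17 missed the threshold without sham replicate 1, 2 or 4 or adjuvant replicate 1, 2 or 4 (edgeR adjusted p 0.0551 to 0.0991). TRBV20 missed it without sham replicate 1 or 2 or adjuvant replicate 1 or 2 (edgeR adjusted p 0.0540 to 0.0834).

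TRBV19 (Vβ6) held 24.8%, 24.1%, 22.3% and 23.8% of sham reads and 21.2%, 23.4%, 21.1% and 21.9% of adjuvant reads. The ranges overlapped, and the log2 fold change of 0.12 (edgeR adjusted p 0.0315) was lost in 10 of 17 alternative analyses. Among these were the fits without sham replicate 1, 2 or 4 or adjuvant replicate 1, 3 or 4, with adjusted p of 0.0563 to 0.0887. The TRBV13 segments (Vβ8) did not pass: their log2 fold changes were -0.01 for TRBV13-1, 0.03 for TRBV13-2 and -0.13 for TRBV13-3 (edgeR adjusted p 0.784, 0.510 and 0.0513). TRBV14 (Vβ13), TRBV23, TRBV24, TRBV30 and TRBV31 did not pass either, with edgeR adjusted p between 0.147 and 0.904. TRBV31 (Vβ14), which lies downstream of the constant regions and rearranges by inversion, differed least in reads, at 3.77% ± 0.186 and 3.75% ± 0.325 (SD, n = 4 each). When each distinct CDR3 was counted once, TRBV31 was called higher in sham nodes (log2 fold change 0.27, edgeR adjusted p 0.0129). Its share was then 6.31% ± 0.639 against 5.23% ± 0.599 (SD, n = 4 each), and the groups overlapped.

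**Figure D1:**
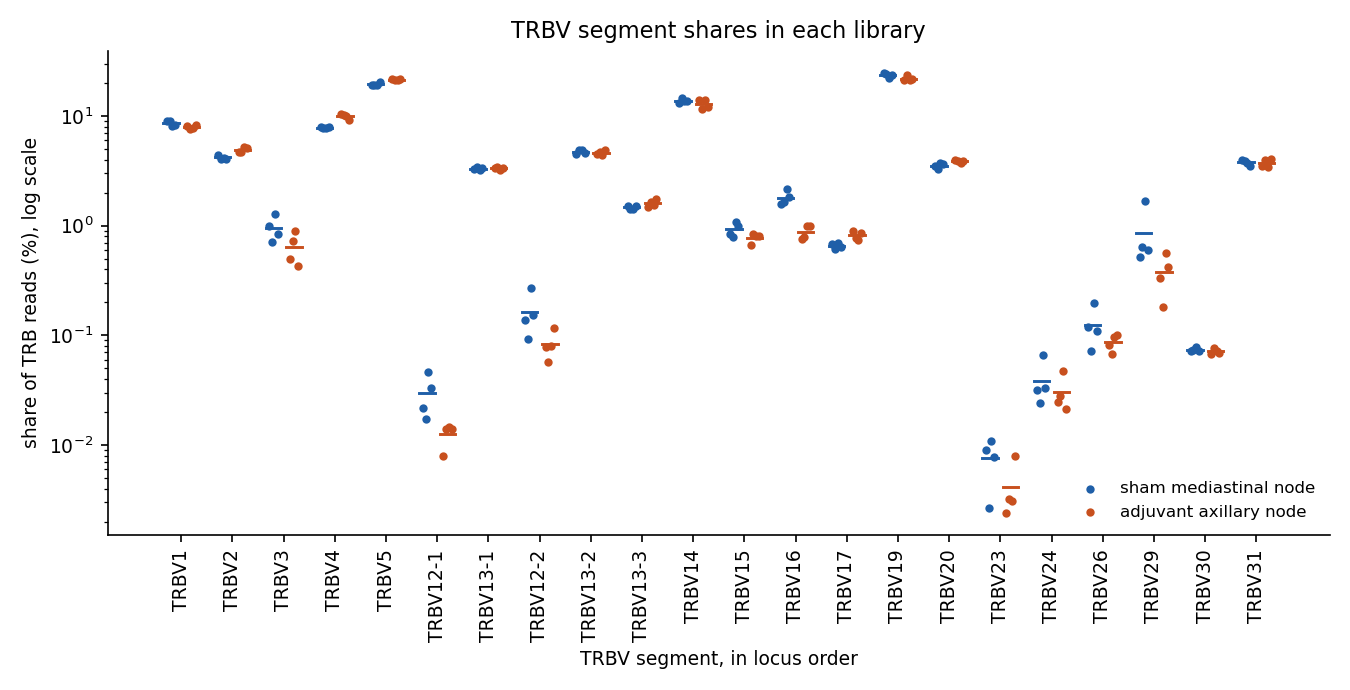
Share of TRB reads (%, log axis) of each TRBV segment in the 4 sham mediastinal (blue) and 4 adjuvant axillary (orange) libraries, in the order of the locus; each point is a library and each bar a group mean. The blue points of TRBV16 all lie above the orange ones, those of TRBV2, TRBV4 and TRBV5 all lie below, and 1 sham library (replicate 3) is the highest point of TRBV29.

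TRBJ usage differed more regularly: the first cluster was lower and the second higher in sham nodes. Of 11 TRBJ segments, 8 passed in edgeR (72.7%), 4 lower (36.4%), all TRBJ1, and 4 higher (36.4%), all TRBJ2. The groups did not overlap for 6 of the 11 (54.5%). These calls are of reads. When each distinct CDR3 was counted once, 5 of the 8 were still called in the same direction. TRBJ1-5 was then called higher (log2 fold change 0.2574, edgeR adjusted p 3.69e-05) and TRBJ2-3 lower (-0.0986, adjusted p 6.91e-05). TRBJ1-2 changed sign, to 0.0039. The whole TRBJ1 cluster held 43.5%, 39.5%, 39.2% and 36.5% of drawn reads in sham libraries and 48.5%, 45.2%, 44.7% and 44.2% in adjuvant libraries. All sham libraries lay below all adjuvant libraries, at 39.7% ± 2.89 against 45.7% ± 1.94 (SD, n = 4 each, exact permutation p 0.0286, the smallest possible, adjusted p 0.0571).

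TRBJ1-1 had the largest fall. It took 15.0%, 12.9%, 13.5% and 11.9% of sham reads and 18.1%, 15.5%, 15.8% and 15.5% of adjuvant reads. The groups did not overlap, although adjuvant replicate 1 lay well above the other adjuvant libraries, and the log2 fold change was -0.28 ± 0.07 (SE, edgeR adjusted p 0.000508). TRBJ1-2, TRBJ1-3 and TRBJ1-4 fell by 0.14, 0.14 and 0.19 on the log2 scale (edgeR adjusted p 0.000641, 0.000546 and 0.00398), and TRBJ1-5 did not pass (-0.11, adjusted p 0.157).

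TRBJ2-2 and TRBJ2-4 had the smallest p of all segments. TRBJ2-2 took 5.86%, 5.97%, 6.01% and 6.05% of sham reads and 5.04%, 5.18%, 5.03% and 4.93% of adjuvant reads. Each group spanned a narrow range, and the log2 fold change was 0.24 ± 0.04 (SE, edgeR adjusted p 2.78e-09). TRBJ2-4 took 8.58%, 9.28%, 9.49% and 9.90% against 7.52%, 7.71%, 8.15% and 7.99%, without overlap (log2 fold change 0.25 ± 0.04 SE, edgeR adjusted p 1.78e-08). TRBJ2-5 rose by 0.18 without overlap and TRBJ2-1 by 0.17 with overlap (edgeR adjusted p 0.000272 and 0.000508), while TRBJ2-3 (0.05, adjusted p 0.353) and TRBJ2-7 (0.10, adjusted p 0.110) did not pass. Within the second cluster alone, TRBJ2-4 held 15.4% ± 0.203 of TRBJ2 reads in sham and 14.4% ± 0.305 in adjuvant nodes, and TRBJ2-3 held 19.0% ± 0.205 and 20.4% ± 0.362 (SD, n = 4 each). Neither pair of groups overlapped. For the other 9 segments the share within the own cluster overlapped between the groups.

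**Figure D2:**
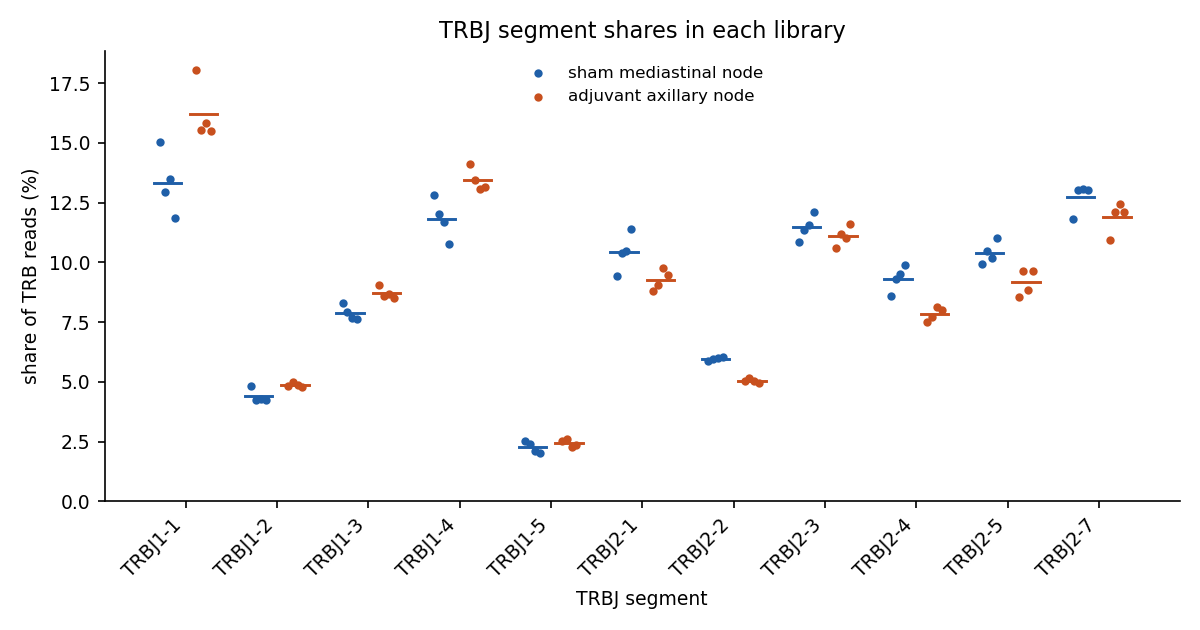
Share of TRB reads (%) of each TRBJ segment in the 4 sham mediastinal (blue) and 4 adjuvant axillary (orange) libraries; each point is a library and each bar a group mean. The blue points lie below the orange ones for TRBJ1-1, TRBJ1-3 and TRBJ1-4 and above them for TRBJ2-2, TRBJ2-4 and TRBJ2-5.

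The lower TRBJ1 use was found across TRBV segments. Within 19 of 22 segments the mean share of reads joined to TRBJ1 was lower in sham nodes, and for 8 of the 22 all sham libraries lay below all adjuvant libraries. Within TRBV4 this share was 46.5%, 41.4%, 44.3% and 37.9% in sham and 56.2%, 50.9%, 50.8% and 49.97% in adjuvant nodes. Within TRBV20 it was 48.1%, 44.8%, 44.7% and 42.2% against 53.3%, 52.8%, 52.1% and 53.1%. Both segments showed no overlap. TRBV23, TRBV24 and TRBV26, which are rare, had a higher mean in sham nodes, and their groups overlapped. Within TRBV16 the groups overlapped as well, at 35.4% ± 4.73 and 39.2% ± 3.12 (SD, n = 4 each). These shares were examined after the segment results were seen and carry no test.

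**Figure D3:**
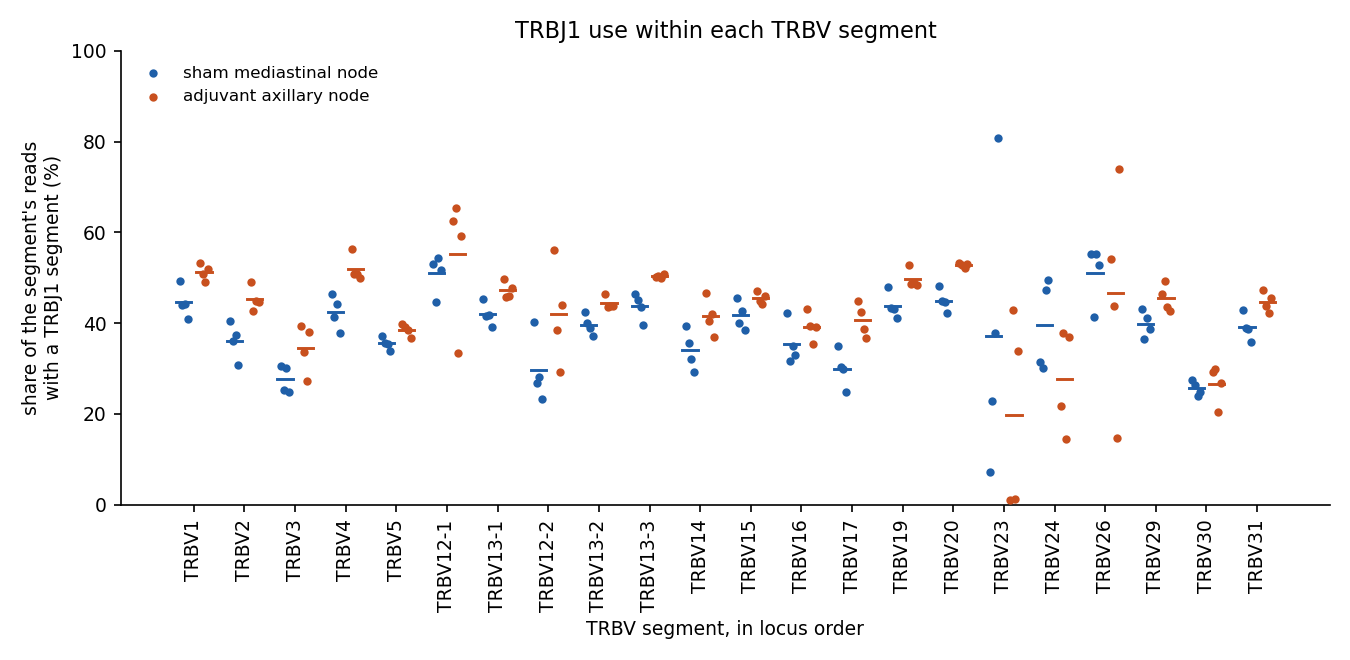
Share (%) of the reads of each TRBV segment that were joined to a TRBJ1 segment, in the 4 sham mediastinal (blue) and 4 adjuvant axillary (orange) libraries; each point is a library and each bar a group mean. Blue means lie below orange means in 19 of 22 segments, and the rare TRBV23, TRBV24 and TRBV26 scatter widely.

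Of 242 TRBV-TRBJ pairs, 68 passed in edgeR (28.1%), 40 higher (16.5%) and 28 lower (11.6%) in sham nodes. The groups did not overlap for 65 of the 242 (26.9%). Among the 132 pairs with a TRBJ2 segment, 34 were higher and 2 lower. Among the 110 pairs with a TRBJ1 segment, 6 were higher and 26 lower. TRBV16 was higher with 10 of its 11 partners and TRBV4 lower with 6 of 11, none going the other way. TRBV2 was lower with 4 TRBJ segments and higher with 1. With TMM scaling in place of library totals the median log2 fold change of all pairs moved from 0.15 to 0.01, and the higher pairs made up 34.5% of calls in place of 58.8%.

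The pair with the smallest p was TRBV4 with TRBJ1-1, at 1.30%, 1.07%, 1.24% and 1.07% of sham reads and 2.46%, 1.93%, 2.27% and 1.78% of adjuvant reads. No sham library reached the lowest adjuvant library, and the log2 fold change was -0.85 ± 0.12 (SE, edgeR adjusted p 0.00139). TRBV2 with TRBJ1-4, TRBV20 with TRBJ1-4, TRBV5 with TRBJ1-4 and TRBV4 with TRBJ1-2 followed, with log2 fold changes of -0.59, -0.40, -0.31 and -0.48 (edgeR adjusted p 0.00143, 0.00300, 0.00307 and 0.00307).

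Among the higher pairs, TRBV14 with TRBJ2-2 took 0.667%, 0.882%, 0.789% and 0.533% of sham reads and 0.466%, 0.450%, 0.470% and 0.395% of adjuvant reads, without overlap (log2 fold change 0.69 ± 0.13 SE, edgeR adjusted p 0.00307). TRBV2 with TRBJ2-2, at 0.269%, 0.248%, 0.203% and 0.267% against 0.166%, 0.180%, 0.168% and 0.194%, was higher although TRBV2 as a whole was lower (log2 fold change 0.48, edgeR adjusted p 0.00307). TRBV16 with TRBJ2-5, TRBV1 with TRBJ2-2 and TRBV19 with TRBJ2-4 rose by 1.03, 0.38 and 0.44 on the log2 scale (edgeR adjusted p 0.00307, 0.00307 and 0.00316). None of these 10 pairs overlapped between the groups.

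MI and antigen libraries come from the same pair of node sites and share no sample with the sham and adjuvant groups, although treatment again differs with site. In that contrast 5 of 22 TRBV segments passed in edgeR (22.7%), 3 higher (13.6%) and 2 lower (9.09%), and all 5 had passed in the same direction between sham and adjuvant nodes. They make up 50% of the sham and adjuvant calls. TRBV16 was 1.65% in MI and 0.927% in antigen libraries (log2 fold change 0.83, edgeR adjusted p 0.00164). TRBV4 and TRBV2 were lower in MI nodes (-0.22 and -0.24, adjusted p 0.00305 and 0.00164). TRBV1 and TRBV29 were higher (0.12 and 1.5, adjusted p 0.0239 and 0.0151).

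TRBV5, TRBV19 and TRBV20, which passed between sham and adjuvant, had log2 fold changes near 0 between MI and antigen nodes (0.01, -0.03 and 0.01, edgeR adjusted p 0.801, 0.630 and 0.888). The difference between the contrasts did not pass for them (edgeR adjusted p 0.1995, 0.323 and 0.332). Among TRBJ segments, 2 of 11 passed (18.2%): TRBJ2-2 at 0.13 and TRBJ2-4 at 0.14 (edgeR adjusted p 0.00346 each). All 8 TRBJ segments called between sham and adjuvant had the same sign here. So did TRBJ1-5, TRBJ2-3 and TRBJ2-7, which were not called, and thus all 11 tested. Over all segments, the difference of the contrasts was called by edgeR for 0 of 22 TRBV and 0 of 11 TRBJ segments (0% each), and by DESeq2 also for 0 of each.

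**Figure D4:**
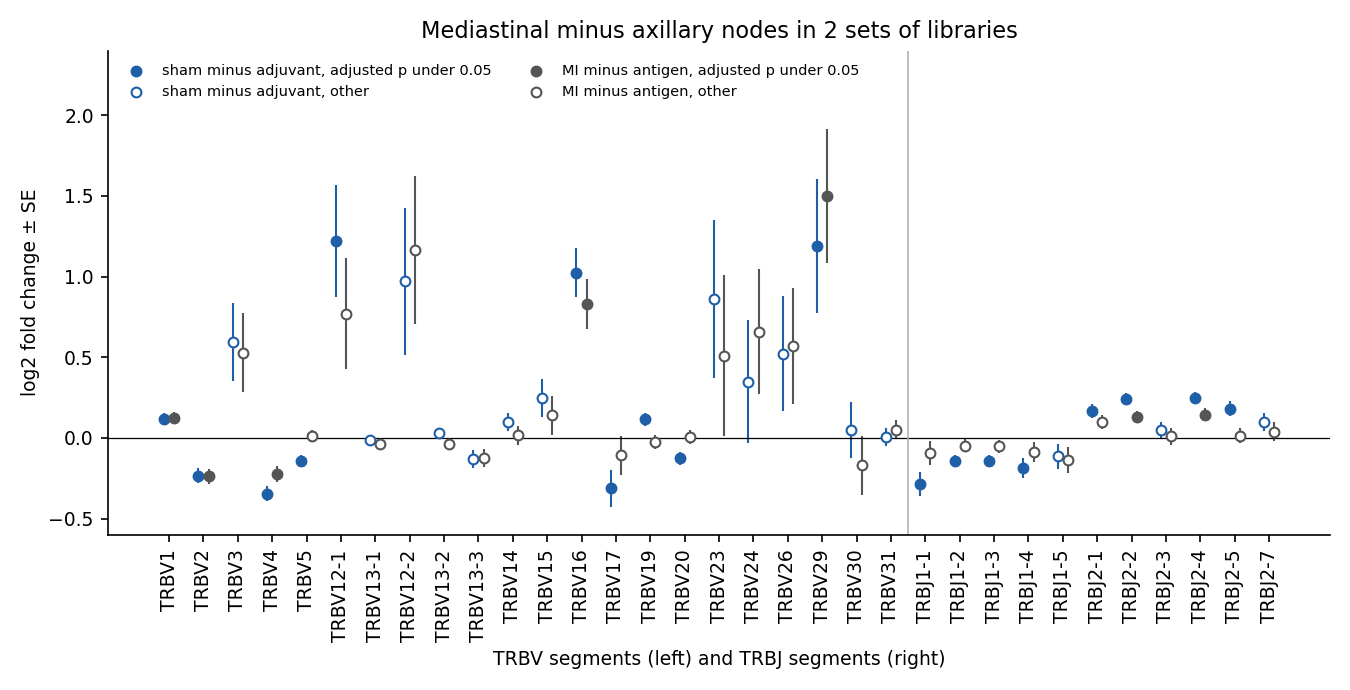
Log2 fold change ± SE of each TRBV and TRBJ segment for sham minus adjuvant (blue) and for MI minus antigen (grey), from 1 edgeR fit of the 16 node libraries; filled points have an adjusted p under 0.05. TRBV1, TRBV16 and TRBV29 are filled above 0 in both contrasts, and TRBV2 and TRBV4 below 0.

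The differences in the TRBJ1 cluster and in TRBV19 depended on how abundant a CDR3 was. Each library's CDR3s were ranked by reads and divided into those that hold the first 10% of reads (230 to 1208 CDR3s in these 8 libraries), the next up to 50%, and the last 50%. In the first band TRBJ1 held 57.9%, 47.7%, 44.4% and 33.9% of reads in sham and 87.0%, 64.8%, 65.2% and 60.5% in adjuvant nodes. All sham libraries lay below all adjuvant libraries, with a difference of means of -23.4 percentage points. In the middle band the difference was -7.44 points, still without overlap. In the last band it was -1.33 points, and the groups overlapped at 36.1% ± 0.691 and 37.4% ± 0.345 (SD, n = 4 each). Single TRBJ segments could still differ there without overlap. TRBJ1-1 held 10.5% ± 0.311 in sham and 11.5% ± 0.359 in adjuvant nodes, and TRBJ2-4 held 10.1% ± 0.408 and 9.33% ± 0.206 (SD, n = 4 each).

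TRBV19 changed direction between the bands. In the first band it held 25.5%, 20.9%, 22.9% and 23.5% of sham reads and 36.4%, 39.0%, 34.4% and 31.6% of adjuvant reads, all sham libraries lower. In the last band it held 14.9%, 15.2%, 15.0% and 13.1% against 10.3%, 10.6%, 7.68% and 10.4%, all sham libraries higher. The TRBV5 means changed order too, at 15.6% ± 4.13 against 12.5% ± 4.82 in the first band, with overlap. In the last band TRBV5 held 19.5% ± 0.741 against 23.1% ± 1.21, all sham libraries lower (SD, n = 4 each). The means of TRBV1, TRBV2 and TRBV14 also changed order between these bands, with overlap in the first. TRBV16 was higher in every sham library in each band. Its mean share was 1.86% ± 0.178 against 0.326% ± 0.1996 in the first band and 1.496% ± 0.272 against 0.965% ± 0.103 in the last band (SD, n = 4 each).

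For TRBJ1, TRBV19 and TRBV16 the MI and antigen libraries had the same order in the first band, and for TRBV19 and TRBV16 in the last. TRBJ1 held 53.3% ± 1.36 (SD, n = 3) of first-band reads in MI and 65.4% ± 5.16 (SD, n = 5) in antigen nodes. TRBV19 held 27.4% and 36.1% of the first band, and 15.8% and 10.3% of the last. In the middle band TRBV19 had the opposite order, at 32.7% in MI and 38.6% in antigen libraries without overlap, beside 35.4% in sham and 33.8% in adjuvant libraries, which overlapped. In each of the 3 first- and last-band cases above no MI library overlapped an antigen library, and the exact two-sided permutation p was 0.0179, the smallest that 56 splits gave. The bands, and ranks tried beside them, were chosen after these data had been seen, and 77 such tests were run (7 subsets of CDR3s by 11 measures). Of these, 29 had an unadjusted p under 0.05 and 0 passed after Benjamini-Hochberg adjustment over all 77, where the smallest adjusted p was 0.0550.

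**Figure D5:**
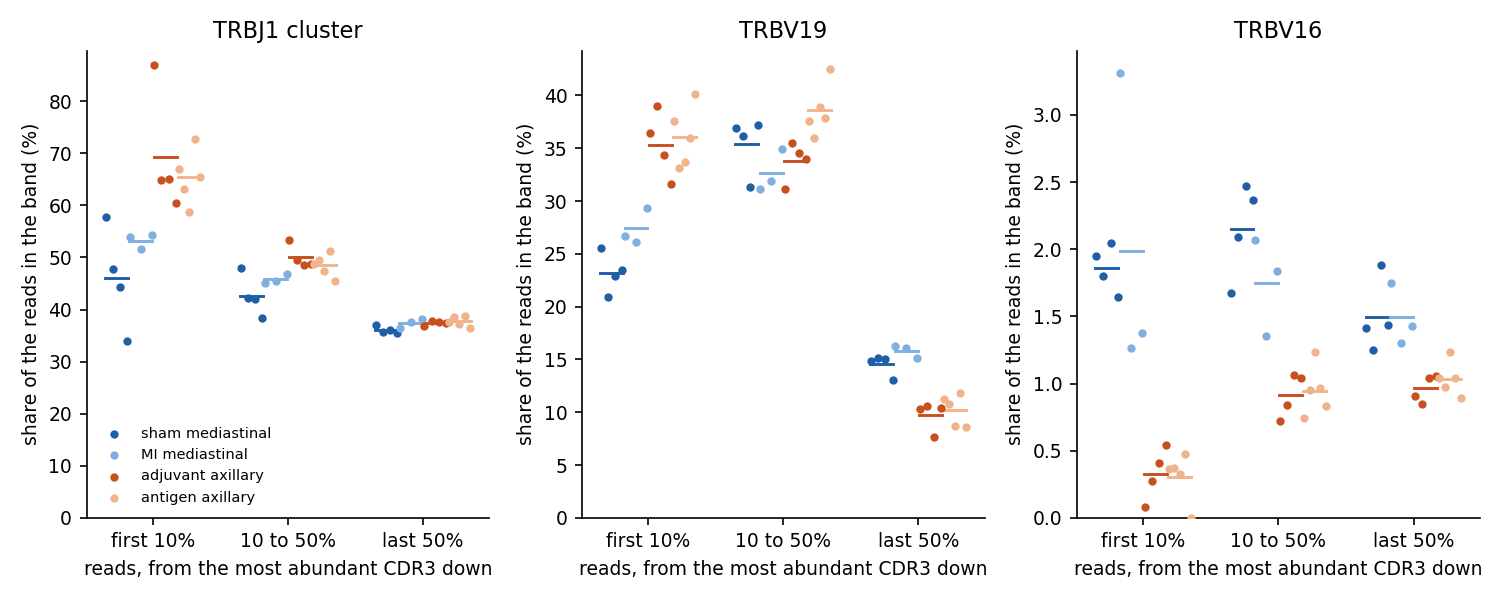
Share (%) of the reads in each abundance band taken by TRBJ1, TRBV19 and TRBV16 in the 16 node libraries, from the CDR3s that hold the first 10% of reads to those of the last 50%; each point is a library and each bar a group mean. In the first band the mediastinal libraries (blue shades) lie below the axillary ones (orange shades) for TRBJ1 and TRBV19 and above them for TRBV16, and in the last band TRBV19 has the opposite order.

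CDR3 composition differed little. The share of reads with a motif of the second diversity segment (GLG or DWG) was 5.38%, 5.75%, 5.44% and 5.83% in sham and 4.96%, 5.25%, 4.89% and 5.38% in adjuvant nodes. All sham values were higher, the closest by a small margin (exact permutation p 0.0286, adjusted p 0.100 over 7 features). Within TRBJ2 reads the same motifs took 8.97% ± 0.231 and 8.99% ± 0.472 (SD, n = 4 each), and the groups overlapped. Net charge in the middle of the loop (the CDR3 without its first 3 and last 3 residues) averaged -0.357, -0.364, -0.364 and -0.365 in sham and -0.393, -0.377, -0.382 and -0.402 in adjuvant nodes (exact permutation p 0.0286, adjusted p 0.100). Weighted by reads, every sham library was less negative. Within TRBJ2 reads the groups also did not overlap, at -0.409 ± 0.00587 and -0.451 ± 0.0159, but within TRBJ1 reads they did, at -0.292 ± 0.0128 and -0.314 ± 0.0103 (SD, n = 4 each). With each distinct CDR3 counted once the groups overlapped, and the difference was 0.0116 in place of 0.0260 (exact permutation p 0.6). Mean length was 12.1 residues in both groups (exact permutation p 0.686), and the shares of short CDR3s, long CDR3s, a hydrophobic pair at residues 6 and 7, and a motif of the first diversity segment had exact permutation p between 0.171 and 0.943.

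Diversity did not separate the groups. At 7712663 drawn reads, sham libraries held 107543, 108909, 211607 and 52705 distinct CDR3s and adjuvant libraries 53871, 88609, 45195 and 92915. The groups overlapped (exact permutation p 0.171, adjusted p 0.514). Without sham replicate 4 the adjusted p was 0.0857. Normalised Shannon entropy, which is 1 when all CDR3s are equally abundant, was 0.912 ± 0.0199 and 0.903 ± 0.0196 (SD, n = 4 each, exact permutation p 0.657). The 100 most abundant CDR3s held 3.84% ± 1.63 and 4.15% ± 1.33 of reads (SD, n = 4 each, exact permutation p 0.771).

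Libraries of a group were no more alike than libraries of different groups. The Morisita-Horn index, which is 0 for no overlap and 1 for identical shares, averaged 0.152 within groups and 0.153 between them (exact one-sided permutation p 0.429). Pairs of libraries ranged from 0.0990 to 0.238 within and from 0.0839 to 0.296 between groups. At equal reads the 8 libraries listed 572089 CDR3s, of which 468690 (81.9%) were in a single library and 790 in all 8. The 790 took between 3.82% and 5.95% of a library's reads and averaged 11.6 residues, against 12.3 over all listed CDR3s. All 4 sham and no adjuvant libraries listed 343 CDR3s, and the reverse held for 23. Sham libraries together listed more CDR3s, so these counts have unequal chances. Without sham replicate 3, the library with the most CDR3s, they were 543 and 73. The rule then asks only about the remaining sham libraries, which by itself can only raise both counts. Among the 20000 most abundant CDR3s of each library they were 44 and 17.

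The 5 CDR3s with the highest mean share among those in all 8 libraries are shown to make the common repertoire concrete. The letters are amino acids, and the conserved residues that bound the loop are left off in the deposited tables. Each is named by the segments it was most often found with in these libraries.
TRBV5 with TRBJ1-3: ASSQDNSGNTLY
TRBV5 with TRBJ1-4: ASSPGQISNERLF
TRBV4 with TRBJ1-1: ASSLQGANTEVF
TRBV5 with TRBJ2-5: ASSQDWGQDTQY
TRBV19 with TRBJ1-2: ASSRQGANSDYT
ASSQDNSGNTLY had 2767, 2121, 1749 and 3931 reads in sham and 3480, 2398, 2415 and 2314 in adjuvant libraries, and its ranges overlapped. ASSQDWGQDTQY, which carries the DWG motif, had 1835, 2578, 1832 and 4456 reads against 1701, 2171, 2467 and 2948. Such CDR3s are carried by several segments: only 42.3% of the reads of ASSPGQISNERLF had the segments named.

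Single CDR3s gave no call in edgeR and many in DESeq2. Of 121771 tested, 0 passed in edgeR (0%), where the smallest adjusted p was 0.195, and 31144 had an unadjusted p under 0.05. DESeq2, run as an alternative, gave an adjusted p under 0.05 for 7411 (6.09%), 5332 higher (4.38%) and 2079 lower (1.71%) in sham nodes, and no adjusted p for 51852. Of the 7411, 7315 (98.7%) had no reads in one whole group, 3900 of these had reads in 1 library of the other group, and 0 were in all 8 libraries. Of all 121771 tested, 62514 (51.3%) had no reads in one whole group. Of these, 32848 had reads in 1 library of the other group, and 792 of the 121771 were in all 8 libraries. The single-CDR3 result therefore differs with the tool, and the cause was not tested. The 5 with the smallest p in edgeR are shown because none passed there, and among these 8 libraries all had reads in sham nodes alone.
TRBV14 with TRBJ1-4: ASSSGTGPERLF
TRBV5 with TRBJ1-1: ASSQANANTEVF
TRBV13-2 with TRBJ2-3: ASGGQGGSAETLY
TRBV14 with TRBJ1-1: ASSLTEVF
TRBV5 with TRBJ2-3: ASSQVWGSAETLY
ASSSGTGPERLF had 63, 20292, 26 and 0 reads in sham libraries, and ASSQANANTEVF had 15097 reads in sham replicate 1 and 0 in the other sham libraries. Each of the 5 thus had most of its reads in 1 library, and the adjuvant libraries had none. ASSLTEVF was the one with reads in all 4 sham libraries, at 114, 7820, 323 and 716. Against a floor of 3 reads in each adjuvant library, its mean share was at least 713-fold higher, a bound that covers counting error only, since PCR reads are not independent molecules. Without sham replicate 2, which held most of its reads, the bound was 121-fold. DESeq2 called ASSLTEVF (adjusted p 1.24e-20) and gave no adjusted p for the other 4. The 5 were picked by their p in these same libraries, so that call is no independent support.

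Other CDR3s found in every library of a group and none of the other varied in how evenly their reads were spread. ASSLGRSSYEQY, with TRBV3 and TRBJ2-7, had 12, 2, 30 and 2780 reads in sham libraries, nearly all in replicate 4. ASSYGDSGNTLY, with TRBV4 and TRBJ1-3, had 4, 3, 809 and 145 in adjuvant libraries. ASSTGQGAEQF, with TRBV19 and TRBJ2-1, had 662, 916, 146 and 4667 reads in sham libraries. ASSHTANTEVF had 1608, 39, 863 and 589 reads in adjuvant libraries, and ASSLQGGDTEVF had 776, 856, 169 and 300. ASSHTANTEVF and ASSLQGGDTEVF were carried most often by TRBV14 with TRBJ1-1 and had no reads in sham libraries, while 5 and 7 of the 8 MI and antigen libraries listed them. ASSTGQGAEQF was in 0 of those 8. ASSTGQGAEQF, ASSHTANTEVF and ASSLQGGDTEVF did not pass in edgeR (adjusted p 0.195 each). DESeq2 gave them adjusted p of 0.00536, 1.57e-14 and 3.03e-05, in the order named. They were picked for being in all 4 libraries of one group and none of the other, so these p-values are no independent support. Of the 366 tested CDR3s with that pattern, DESeq2 called 200.

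The most abundant CDR3 of a library ranged from private to 1 library to listed in all 8. In sham replicate 4 it was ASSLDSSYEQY (TRBV14 with TRBJ2-7), at 34179 reads, with 360, 484 and 401 reads in the other sham libraries and 157, 0, 0 and 687 in adjuvant libraries. In sham replicate 1 it was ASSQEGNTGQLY (TRBV5 with TRBJ2-2), at 26087 reads. That CDR3 had 0, 335 and 0 reads in the other sham libraries and 0, 176, 0 and 311 in adjuvant libraries. Of the 8 MI and antigen libraries, 5 listed it. The most abundant CDR3 of sham replicate 3, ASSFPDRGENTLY, had 5395 reads there and 0 in the other 7 libraries. In adjuvant replicates 1 and 3 the leading CDR3s, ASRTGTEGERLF with 10271 reads and another TRBV14 CDR3 with 10189 reads, were likewise in no other of the 8. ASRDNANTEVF, which led adjuvant replicate 4 with 8906 reads, was listed in all 8 libraries.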

How the data were processed

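TRB libraries were made from sorted CD4+ T cells by multiplex PCR and sequenced, per the labels' protocols. The deposited tables list each CDR3 amino acid sequence with its TRBV and TRBJ segment and a whole-number read count, the lowest being 2. How reads were aligned and errors filtered, and on which build, is not given in the sources used here. Counts are of PCR reads.

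Counts were summed per segment, pair and CDR3. Features were tested if they had any reads in at least 3 node libraries and at least 20 reads in all. The 16 node libraries in their 5 groups were fitted with edgeR 4.0.16 (quasi-likelihood test, library totals as offsets, Benjamini-Hochberg adjustment over all features, threshold 0.05) in R 4.3.3. DESeq2 1.42.0 was an alternative. Diversity, CDR3 features, segment lists and overlap used 7712663 reads drawn per library and exact permutation tests over samples, two-sided except for overlap. The fits were tested on simulated data. Segments were named and ordered by RefSeq (GRCm38), which matched all 33. Named pairs and CDR3s were those with the smallest p in each direction, the highest mean share among shared CDR3s, and the most abundant of each library. The members and lists were chosen with earlier results of these data known. Alternatives were other scalings, count filters, the distinct CDR3s, the replicate number as a block and each library left out. The 3 heart libraries were not used here.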

Additional observations from a re-analysis of the deposited data

Results flagged for a closer look

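In 8 of 102 groups of 4 libraries examined, 1 library lay apart from the other 3 by more than the limit of Dixon's test, which chance alone exceeds in about 1 in 20 groups.

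In sham nodes, replicate 3 had 1.66% of reads with TRBV29, against 0.515% to 0.641% in the others, and replicate 4 had 20.4% with TRBV5, against 19.0% to 19.2%. Sham replicate 1 lay apart for TRBJ1-2 (4.83% against 4.22% to 4.27%), for TRBJ2-7 (11.8% against 13.0% to 13.1%) and for mean CDR3 charge outside the first and last 3 residues (-0.357 against -0.365 to -0.364).

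In adjuvant nodes, replicate 1 had 0.00799% of reads with TRBV12-1, against 0.0140% to 0.0147% in the others, and 18.1% with TRBJ1-1, against 15.5% to 15.8%. Adjuvant replicate 4 had 0.00786% of reads with TRBV23, against 0.00241% to 0.00321%.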

How the results depend on the processing

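TRBV16, TRBV4 and TRBV5 kept their direction and their call in all 17 alternatives, as did TRBJ1-1, TRBJ1-4, TRBJ2-2, TRBJ2-4 and TRBJ2-5. The abundance bands are not among the 17, and in the first band the TRBV5 mean was higher in sham nodes, with overlap. Between sham and adjuvant, 10 TRBV segments were called, 6 when distinct CDR3s were counted, 5 with only the 8 libraries fitted, and 6 to 10 when a library was left out. Pair calls numbered 68, and 33 of 237 tested with distinct CDR3s, 22 of them among the 68 in the same direction. CDR3 calls between sham and adjuvant were 0 in edgeR under each alternative run and 7411 in DESeq2. In MI against antigen and in the difference of the contrasts, edgeR's current settings called 1 CDR3 each, and DESeq2 10189 and 8263. MI against antigen gave 5 TRBV calls, and 10 with entries of at least 10 reads. The difference of the contrasts gave 0 segment calls, but 2 TRBV segments with entries of at least 10 reads, and 1 TRBJ segment with TMM, 1 without the 100 most abundant CDR3s and 2 with edgeR's current settings. DESeq2 called 4 pairs for that difference. Other causes were not tested.

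Log2 changes that turned sign were, with DESeq2, TRBV13-2 (-0.0061), TRBV31 (-0.0263) and TRBJ2-3 (-0.0164), and for MI against antigen TRBV14 (-0.0215), TRBV20 (-0.0310), TRBV5 (-0.0226), TRBJ2-3 (-0.0041) and TRBJ2-5 (-0.0017). With TMM they were TRBV13-2 (-0.0296), TRBV30 (-0.0103) and TRBV31 (-0.0513). With distinct CDR3s they were TRBV13-1 (0.1301), TRBV13-3 (0.0227), TRBV14 (-0.2817), TRBV15 (-0.0830), TRBV2 (0.0047), TRBV20 (0.1031), TRBJ1-2 (0.0039), TRBJ1-5 (0.2574) and TRBJ2-3 (-0.0986), of which TRBV14, TRBJ1-5 and TRBJ2-3 passed the threshold in that direction. With entries of at least 10 reads they were TRBV13-2 (-0.0864), TRBV30 (-0.2237) and TRBV31 (-0.0247), and for MI against antigen TRBV19 (0.0354), TRBV20 (-0.1211), TRBV31 (-0.0483) and TRBJ2-5 (-0.0096). Without the 100 most abundant CDR3s TRBJ2-3 was -0.0012. With a library left out, TRBV31 ranged from -0.0312 to 0.0483, TRBV13-1 from -0.0304 to 0.0045 and TRBV24 from -0.0305 to 0.6436.

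Among measures without a call, the sham minus adjuvant entropy was -0.00182 with entries of at least 10 reads. With distinct CDR3s the differences were 0.374 points for the first diversity motif, 0.00553 for short CDR3s, 0.00142 for the hydrophobic pair and 2.56 for the TRBV13 family. The TRBV31 share differed by -0.0639 with entries of at least 10 reads. Leaving out a library gave -0.947 to 0.384 points for the 100 most abundant CDR3s, -0.174 to 0.0752 for the first diversity motif, -0.0218 to 0.137 for long CDR3s, -0.0426 to 0.0359 for the hydrophobic pair, -0.00322 to 0.0137 residues for length, -0.195 to 0.0492 for the TRBV13 family, -0.0848 to 0.121 for TRBV31, and -0.00855 to 0.00957 for within minus between overlap. That overlap was 0.000521 among the 20000 most abundant CDR3s.

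CDR3s in every library numbered 219 among the 20000 most abundant and 509 with entries of at least 10 reads, and 794 to 1349 with a library left out. Those of sham libraries alone numbered 44, 223 and 417 to 2391, and those of adjuvant libraries alone 25 to 167 with a library left out. Leaving a library out loosens the rule, so these counts can only rise. By abundance, a choice made after seeing the data, TRBJ1 differed by -17.5 points among ranks 1 to 1000, 0.503 beyond rank 10000, -23.4 in the first 10% of reads and -1.33 in the last 50%. TRBV19 differed by -9.53, 6.98, -12.2 and 4.82 points. Beyond rank 10000 the groups overlapped for TRBV16, at 1.36% ± 0.603 in sham and 0.767% ± 0.207 in adjuvant libraries (SD).

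Over 121771 single CDR3s, samples with the same replicate number did not deviate together (correlations of -0.0206 to 0.00485), and the numbers were not taken as pairs. The TRBJ1 share of drawn reads, however, fell from replicate 1 to replicate 4 in both groups. It was 43.5%, 39.5%, 39.2% and 36.5% in sham and 48.5%, 45.2%, 44.7% and 44.2% in adjuvant libraries. Whether samples with the same number share a source was not tested. With the replicate number as a block, 11 TRBV segments, 8 TRBJ segments, 69 pairs and 0 CDR3s were called. The rare TRBV23 had the widest error among the TRBV segments, a log2 SE of 0.49.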
